A study of Mus musculus with 16 samples.

Results

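The 40 genes described here encode the glutathione, thioredoxin, haem and NADPH arms of the antioxidant defence of the cell, together with NFE2L2 (NRF2) and the proteins that restrain it. They were listed by gene symbol, with earlier results of these data known. Each matched 1 of the 54532 gene identifiers in the deposited tables. Levels are given in FPKM, a read count scaled by gene length and by library size. Genes were tested where 4 or more of the 16 libraries reached 1 FPKM, which held for 39 members among 11654 genes in all. Slc7a11, the cystine importer that feeds glutathione synthesis, did not pass: it lay between 0.115 and 1.06 FPKM and was not tested.

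NRF2 is a transcription factor that KEAP1 holds in the cytoplasm and sends for degradation; oxidants and electrophiles modify KEAP1, and NRF2 then pairs with small MAF proteins on antioxidant response elements, where BACH1 competes as a repressor. Its known targets include enzymes that make and recycle glutathione, the thioredoxin and peroxiredoxin system, haem oxygenase and the enzymes that supply NADPH. Glutathione and thioredoxin are the reducing couples that peroxidases use to remove peroxides, and NADPH regenerates both. In macrophages the same NADPH also feeds the phagocyte oxidase, which makes superoxide.

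The cells were bone marrow-derived macrophages of FVB/N mice, grown from marrow for 5 to 7 days with 30% medium conditioned by L929 cells, a fibroblast line that secretes the macrophage growth factor M-CSF. The 4 groups of 4 libraries were wild type with vehicle (DMSO), wild type with 100 nM dexamethasone for 24 h, FOXO3-/- with vehicle and FOXO3-/- with dexamethasone. Dexamethasone is a synthetic glucocorticoid that activates the glucocorticoid receptor (Nr3c1), and FOXO3 is a transcription factor with known antioxidant targets. The labels do not give which piece of Foxo3 was removed. They also do not say whether libraries of a group came from separate animals, so the p-values take in only library-to-library spread, part or all of which may be technical.

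Each library held 16886740 to 20584556 reads assigned to genes, as recovered from the FPKM steps. All 10 macrophage markers averaged at least 1 FPKM in each group, summed to 9890 to 15900 FPKM per library, and neutrophil, erythroid, lymphocyte and mast cell lists summed to at most 4.68. The 5 glucocorticoid receptor target genes rose in both genotypes (Fkbp5 from 1.19 to 81.6 FPKM in wild type). Foxo3 lay between 21.9 and 26.4 FPKM in all 16 libraries and its groups overlapped, so gene-level values do not check the genotype label, and "knockout" below means the libraries labelled FOXO3-/-. Stromal RNA went with genotype: the 10 stromal markers, of which none was at 0 across a group, summed to 21.9 to 418 FPKM in wild type with vehicle and 49.8 to 843 with dexamethasone, against 2.05 to 291 and 4.57 to 66.4 in the knockout. Wild-type vehicle library 3 and wild-type dexamethasone library 4 were low for their groups (Col1a1 at 6.77 and 19.1 FPKM), and knockout vehicle library 4 was high (95.8). In bulk RNA, fewer cells of a type and less RNA per cell cannot be told apart.

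Dexamethasone moved the antioxidant genes in opposite directions within each genotype. Haem oxygenase (Hmox1), Gpx3, Gsta3, Gsr, Gsto1 and Sod1 rose in both genotypes, while Nfe2l2 itself, Prdx1, Prdx2, Srxn1, Txn1, Txnrd2 and Gstp1 fell in both. Gsta3 passed the filter on low values only through treated libraries, so its rise, counted below, had that help. Sod1 passed in 12 of 27 alternative fits in wild type and in 20 of 27 in the knockout. The glutathione synthesis genes Gclc and Gclm rose in wild type. In wild type 18 of 39 members passed limma's test at a Benjamini-Hochberg adjusted p under 0.05, against 30.1% of all genes. Of these 10 rose and 8 fell, where 11.9% of all genes rose and 18.2% fell. In the knockout 24 of 39 passed, against 39.1% of all genes; 6 rose and 18 fell, where 15.0% of all genes rose and 24.1% fell. The share of members that rose was 25.6% in wild type, above that of all genes, and 15.4% in the knockout, near it. The share that fell was 20.5% in wild type and 46.2% in the knockout. The median member difference was -0.10 in wild type and -0.22 in the knockout on the log2(FPKM + 1) scale, beside -0.02 and -0.05 over all genes. None of the 8 tested stromal markers passed in either genotype, though their median difference was 1.02 in wild type and -0.06 in the knockout. Of the 10 macrophage markers, 2 rose and 7 fell in wild type, and 3 rose and 6 fell in the knockout. The part of either list in the member results was not tested.

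The balance of rises and falls in the knockout moved under some scalings but little under median-ratio scaling, which kept 23 of the 24 calls. That scaling lost the fall of Prdx3 and added 2 rises, of Cat and Gclm. Quantile normalization gave 8 members up and 9 down there, and limma voom on recovered reads gave 10 up and 10 down. Over all genes in the knockout the same fits called 2059 up and 1968 down, and 3290 up and 1724 down, against 1753 up and 2809 down in the main analysis. In wild type voom called 2024 genes up and 1581 down, against 1386 up and 2122 down. Voom scaled by total reads of the tested genes alone, and it moved the median of all genes in the knockout from -0.055 to 0.119. No member called in any comparison changed sign under any of the 27 alternatives, but many of these could not change it. The difference stays the same without a library of a group not compared or with another filter. It also stays the same with only the groups compared and with the replicate number as a block.

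**Figure D1:**
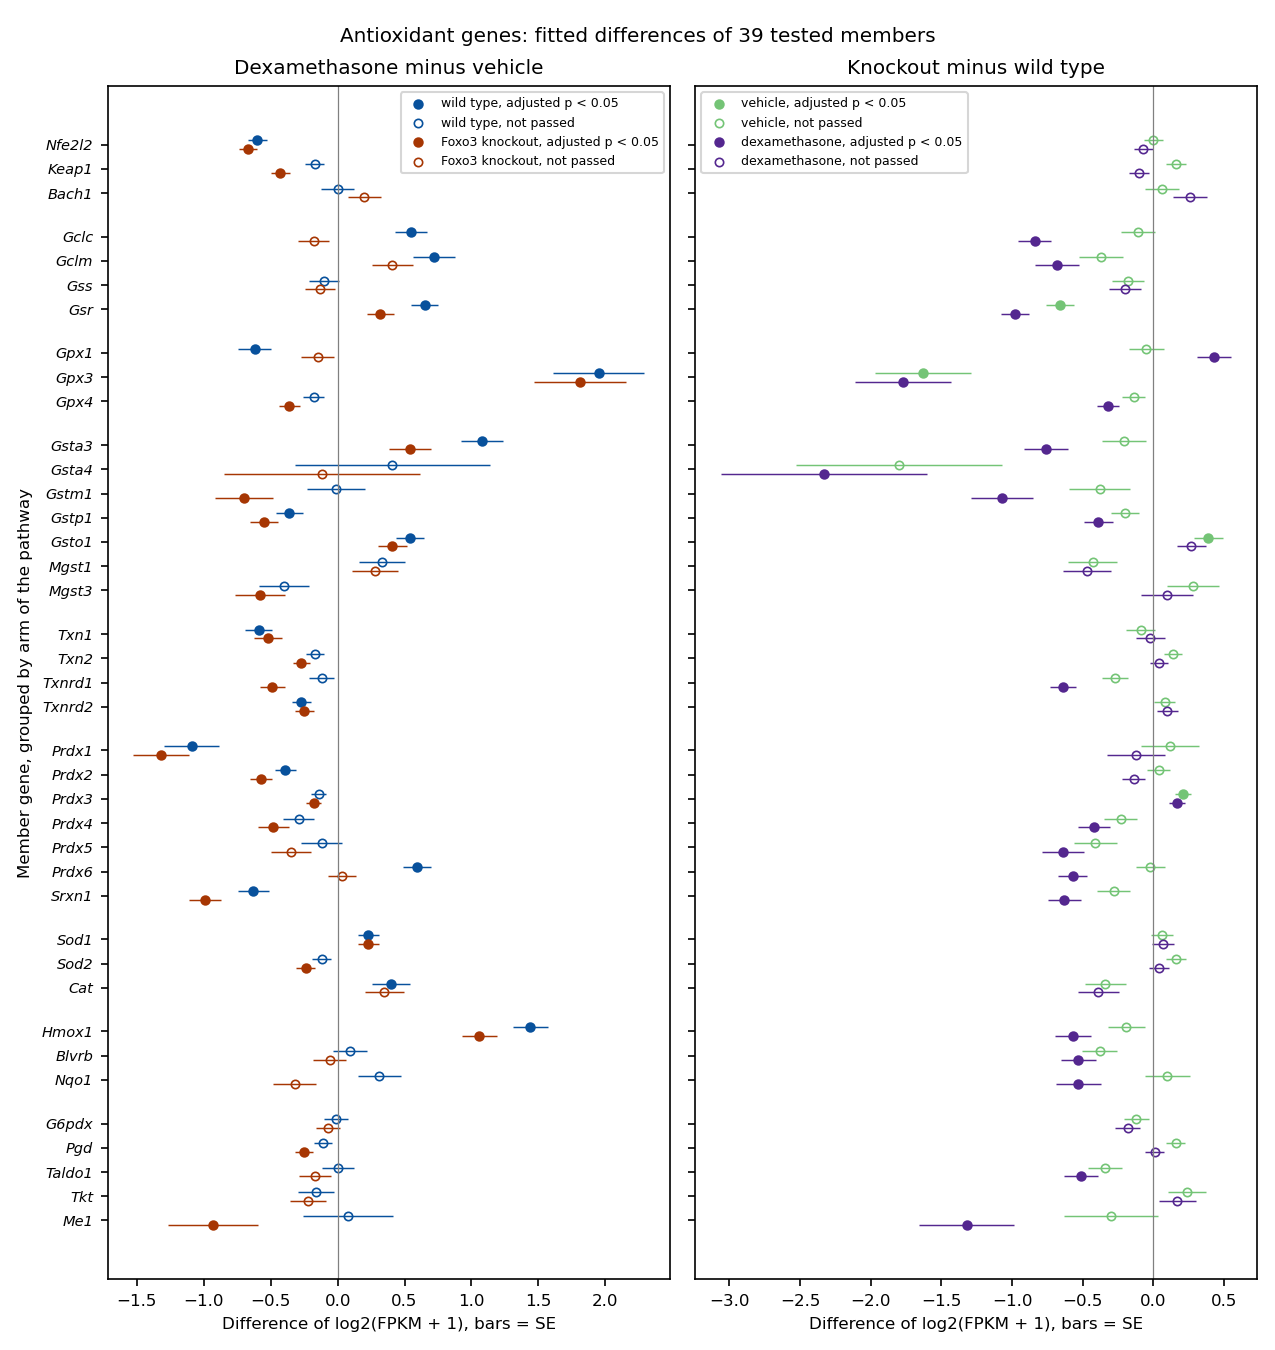
Fitted differences of the 39 tested members on the log2(FPKM + 1) scale, dexamethasone minus vehicle in each genotype (left) and knockout minus wild type in each treatment (right); bars are standard errors and filled points passed an adjusted p of 0.05. Hmox1 and Gpx3 lie to the right in both genotypes on the left panel, Prdx1 and Srxn1 to the left, and most filled points under dexamethasone on the right panel lie below 0.

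Promoter windows were searched for the core of the antioxidant response element, TGACNNNGC, on both strands, since many members are known NRF2 targets. RefSeq windows on GRCm38.p6, from 250 bases before to 50 after each gene start, were at hand for 35 of the 40 members and held 45 windows. A match was found in 11 of them (24.4%), each in a different member, against 12.4% of 32851 windows of all genes. The fuller form TGACTCAGC was in the windows of Prdx1 and Me1, 2 of 45, and in 0.454% of all windows. The windows of Gsr, Gclc, Gsta4, Prdx6 and Hmox1 are not used here. Shown are windows of 2 members that fell with dexamethasone in both genotypes, Prdx1 (chr4:116685349-116685648, plus strand) and Srxn1 (chr2:152105274-152105573, plus strand), of Gclm (chr3:122245307-122245606, plus strand), which rose in wild type, and of Gsta3 (chr1:21240335-21240634, plus strand), which rose in both, with the match in capitals.
Prdx1: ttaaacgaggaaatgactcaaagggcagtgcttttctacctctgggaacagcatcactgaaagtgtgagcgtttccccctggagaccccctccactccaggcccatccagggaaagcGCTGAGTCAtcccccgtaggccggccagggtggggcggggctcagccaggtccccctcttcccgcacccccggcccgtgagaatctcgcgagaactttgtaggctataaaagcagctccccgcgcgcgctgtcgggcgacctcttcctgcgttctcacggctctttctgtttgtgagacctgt
Srxn1: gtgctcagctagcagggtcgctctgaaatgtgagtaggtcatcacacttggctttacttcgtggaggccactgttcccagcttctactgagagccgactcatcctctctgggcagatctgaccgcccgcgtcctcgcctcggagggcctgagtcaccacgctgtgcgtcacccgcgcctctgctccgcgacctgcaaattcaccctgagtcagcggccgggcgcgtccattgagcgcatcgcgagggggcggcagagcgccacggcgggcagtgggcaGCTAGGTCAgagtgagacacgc
Gclm: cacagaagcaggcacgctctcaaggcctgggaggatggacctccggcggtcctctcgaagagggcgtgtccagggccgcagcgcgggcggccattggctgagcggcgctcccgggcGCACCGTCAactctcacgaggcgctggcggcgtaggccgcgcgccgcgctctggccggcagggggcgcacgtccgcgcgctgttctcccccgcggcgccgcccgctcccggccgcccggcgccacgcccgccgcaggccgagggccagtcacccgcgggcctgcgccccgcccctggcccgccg
Gsta3: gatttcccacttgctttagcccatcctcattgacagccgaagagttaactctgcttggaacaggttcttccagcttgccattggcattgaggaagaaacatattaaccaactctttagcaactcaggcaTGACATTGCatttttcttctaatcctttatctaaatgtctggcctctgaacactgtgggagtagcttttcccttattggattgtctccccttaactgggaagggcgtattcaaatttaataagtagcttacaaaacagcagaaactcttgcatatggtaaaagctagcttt
Matches thus stood in windows of members that rose and of members that fell. The match began 133 bases before the start in Prdx1, 134 before it in Gclm and 121 before it in Gsta3, and 28 after it in Srxn1. It is on the opposite strand in Prdx1, Srxn1 and Gclm and on the gene's own strand in Gsta3. The other matches were in Nfe2l2, Pgd, Mgst1, Me1, Txnrd1, Sod1 and G6pdx. The windows of Pgd, Txnrd1 and G6pdx lie wholly inside the annotated bounds of the gene, past its outermost start. They are therefore not upstream of the gene as annotated. A match is a string of letters, not a measured binding site.

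Among the sensors, Nfe2l2 fell with dexamethasone in both genotypes. In wild type it stood at 82.6, 82.8, 91.9 and 88.8 FPKM in vehicle libraries 1 to 4 and at 51.8, 58.9, 55.4 and 61.1 with dexamethasone. Knockout libraries stood at 96.4, 85.4, 85.5 and 79.4 with vehicle and at 54.7, 57.2, 52.1 and 52.6 with dexamethasone. All 8 treated libraries lay below all 8 vehicle libraries. The log2 difference was -0.60 (SE 0.0691, adjusted p = 1.82e-05) in wild type and -0.67 (SE 0.0691, adjusted p = 4.33e-06) in the knockout. Keap1, which targets NRF2 for degradation, fell in the knockout from 18.2 ± 1.54 to 13.2 ± 0.621 FPKM (SD, n = 4; log2 difference -0.43, adjusted p = 0.000251) and was 16.2 ± 1.00 and 14.2 ± 1.18 in wild type (-0.17, adjusted p = 0.0812). Bach1, the competing repressor, passed in neither genotype, with knockout and wild-type levels of 20.7 to 30.0 and 18.6 to 29.4 FPKM. An antisense gene overlaps 10.9% of the exon bases of Keap1, and the strand setting of the counting is not given.

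Haem oxygenase 1, which opens haem to biliverdin, iron and carbon monoxide, was the member with the smallest adjusted p in wild type. Hmox1 stood at 337, 291, 301 and 278 FPKM with vehicle in wild type and at 732, 874, 831 and 848 with dexamethasone. Knockout levels were 286, 305, 288 and 195 with vehicle and 620, 600, 481 and 522 with dexamethasone. The groups did not overlap in either genotype. Mean levels rose 2.72-fold in wild type (log2 difference 1.44, SE 0.129, adjusted p = 1.65e-06) and 2.07-fold in the knockout (1.06, SE 0.129, adjusted p = 1.88e-05). Blvrb, a biliverdin and flavin reductase, and Nqo1, the quinone reductase often used as an NRF2 readout, passed in neither genotype. Nqo1 was 2.02 to 2.40 FPKM in wild type with vehicle and 2.19 to 4.08 with dexamethasone, and 1.93 to 2.74 and 1.08 to 2.35 in the knockout.

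In the glutathione synthesis and recycling arm, 3 of 4 tested genes rose with dexamethasone in wild type and 1 in the knockout. Over all genes 11.9% rose in wild type and 15.0% in the knockout. Gclc, the catalytic subunit of glutamate-cysteine ligase, stood at 12.2, 9.91, 14.4 and 10.7 FPKM in wild type with vehicle and at 17.1, 20.4, 16.2 and 17 with dexamethasone. Its knockout values were 10.8, 11.8, 12.5 and 8.34 with vehicle and 9.44, 9.92, 8.95 and 9.25 with dexamethasone. The wild-type groups did not overlap and the knockout groups did. The difference was 0.55 in wild type (SE 0.119, adjusted p = 0.0028) and -0.18 in the knockout (SE 0.119, adjusted p = 0.255).

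Gclm, the modifier subunit of that ligase, went from 13.1, 12.5, 16.4 and 12.3 to 17.6, 26.5, 19.7 and 29.7 FPKM in wild type, without overlap (0.72, SE 0.156, adjusted p = 0.00307). Knockout libraries went from 11.2, 9.68, 11.9 and 8.36 to 15.4, 14.8, 11.3 and 14.3, with overlap (0.41, SE 0.156, adjusted p = 0.0506). That knockout value of Gclm lay at the threshold and passed in 13 of 27 alternatives (0.32 to 0.61, adjusted p 0.00551 to 0.137), among them median-ratio scaling, quantile normalization and voom. Gsr, the reductase that restores glutathione with NADPH, rose from 26.7 ± 1.91 to 42.6 ± 6.0 FPKM (SD, n = 4) in wild type (0.65, SE 0.101, adjusted p = 0.000241). Knockout levels of Gsr went from 16, 18.6, 16.3 and 15.4 to 18.3, 22.2, 20.3 and 23.2, with a slight overlap (0.32, SE 0.101, adjusted p = 0.0193). That knockout call for Gsr ended without dexamethasone library 2 (0.30, adjusted p = 0.0553) or 4 (0.28, adjusted p = 0.0616), and the difference was 0.51 under voom. Gss, glutathione synthetase, was low throughout, between 2.88 and 4.94 FPKM, and passed in neither genotype.

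The glutathione peroxidases did not move together. Gpx3, the secreted plasma form, stood at 56.9, 63.9, 31.5 and 68.2 FPKM in wild type with vehicle and at 246, 156, 312 and 154 with dexamethasone. Knockout libraries held 22.7, 13.9, 8.32 and 26.8 with vehicle and 45.5, 61.6, 57.8 and 79.8 with dexamethasone. Treated libraries were above vehicle libraries in each genotype, by 3.94-fold in wild type (1.95, SE 0.341, adjusted p = 0.000626) and 3.41-fold in the knockout (1.81, SE 0.341, adjusted p = 0.000785). Gpx1, the abundant cytosolic peroxidase, fell in wild type from 295 ± 29.3 to 193 ± 33.2 FPKM (-0.62, adjusted p = 0.00154) and was 287 ± 38.6 and 257 ± 14.4 in the knockout (-0.15, adjusted p = 0.363). Gpx4, which removes lipid peroxides, fell in the knockout from 177 ± 14.9 to 138 ± 9.79 (-0.36, adjusted p = 0.00235). Under quantile normalization the Gpx4 difference was -0.09 (adjusted p = 0.267, the highest over its 27 alternatives, which began at 6.74e-05), and under voom it was -0.19. Reads of Gpx4 may be shared with the pseudogene Gpx4-ps2, 99.7% identical over 733 bases and listed at a mean of 26.1 FPKM beside 170 for Gpx4.

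**Figure D2:**
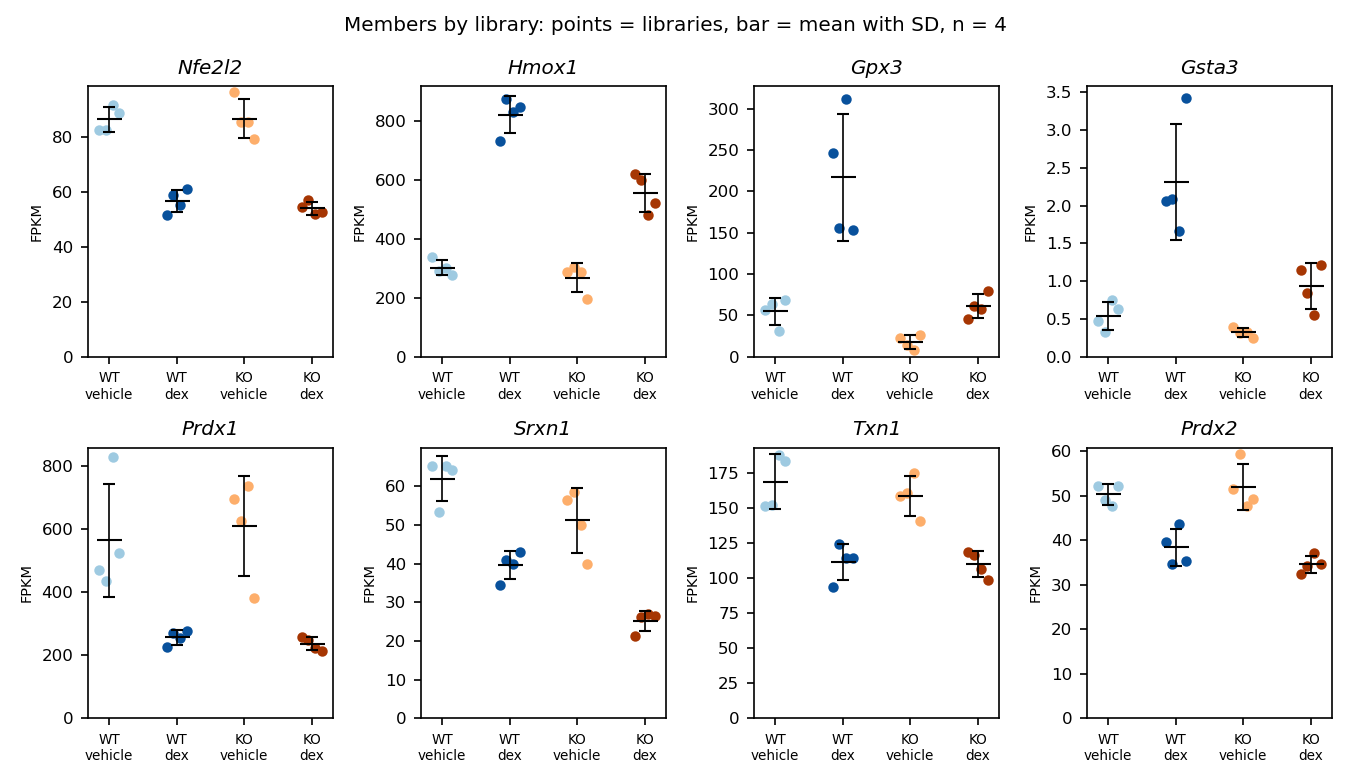
FPKM of 8 members in each of the 16 libraries; points are libraries and bars the mean with SD, n = 4 per group. Hmox1, Gpx3 and Gsta3 are higher in every dexamethasone library than in every vehicle library of the same genotype, and Nfe2l2, Prdx1, Srxn1, Txn1 and Prdx2 are lower. Gsta3 passed the filter on low values only through treated libraries.

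Of the 7 glutathione transferases, which conjugate glutathione to electrophiles, 2 rose and 1 fell in wild type and 2 rose and 3 fell in the knockout. Among all genes 11.9% rose and 18.2% fell in wild type, and 15.0% rose and 24.1% fell in the knockout. Gsta3 was low, at 0.467, 0.323, 0.746 and 0.629 FPKM in wild type with vehicle and 2.06, 2.08, 1.67 and 3.42 with dexamethasone. In the knockout Gsta3 was 0.401, 0.320, 0.331 and 0.250 with vehicle and 1.14, 0.841, 0.556 and 1.22 with dexamethasone. All 8 vehicle libraries were under 1 FPKM, so Gsta3 passed the filter only through treated libraries, and its calls had that help. The log2(FPKM + 1) difference was 1.08 in wild type (SE 0.155, adjusted p = 0.000114) and 0.54 in the knockout (SE 0.155, adjusted p = 0.0129). At such levels the scale understates the change: voom gave Gsta3 differences of 2.19 and 1.63. The knockout call of Gsta3 ended under quantile normalization (0.44, adjusted p = 0.11). Gsto1, an omega-class enzyme that reduces dehydroascorbate, rose from 26.0 ± 2.47 to 38.5 ± 6.07 FPKM in wild type (0.54, adjusted p = 0.00143) and from 34.4 ± 3.47 to 46.2 ± 3.73 in the knockout (0.41, adjusted p = 0.00621).

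Gstp1, the pi-class enzyme, fell from 93.4 ± 8.75 to 72.6 ± 9.44 FPKM in wild type (-0.36, adjusted p = 0.014) and from 81.0 ± 7.07 to 54.8 ± 5.19 in the knockout (-0.55, adjusted p = 0.000624). The wild-type call of Gstp1 ended under quantile normalization (-0.22, adjusted p = 0.111) and under voom (-0.28, adjusted p = 0.0742). The near copy Gstp2, 98.2% identical, was listed at a mean of 0.149 FPKM beside 75.4 for Gstp1, and reads could be split between them. Gstm1 fell in the knockout from 187, 193, 160 and 78.0 to 80.3, 96.5, 88.7 and 91.9 (-0.70, SE 0.217, adjusted p = 0.0188), and its groups overlapped through vehicle library 4. That call ended without knockout vehicle library 1 (-0.58, adjusted p = 0.0635) or 2 (-0.57, adjusted p = 0.0674), without knockout dexamethasone library 1 (-0.65, adjusted p = 0.0523), under quantile normalization (-0.47, adjusted p = 0.0622) and with only the groups compared (-0.70, adjusted p = 0.0568). Mgst3, a microsomal member, fell in the knockout by 0.58 (adjusted p = 0.0205). Its call ended without vehicle library 1 or 2 or dexamethasone library 1 or 4 of the knockout (adjusted p 0.0506 to 0.0653), under quantile normalization (-0.45, adjusted p = 0.0536) and under voom (-0.43, adjusted p = 0.0507). Mgst1 passed in neither genotype (0.33 and 0.28), nor did Gsta4 (0.41 and -0.12).

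In the thioredoxin arm no gene rose with dexamethasone: 2 of 4 fell in wild type and 4 of 4 in the knockout. Over all genes 18.2% fell in wild type and 24.1% in the knockout. Txn1, cytosolic thioredoxin, stood at 152, 152, 188 and 184 FPKM in wild type with vehicle and at 94.0, 124, 115 and 115 with dexamethasone. Knockout values were 159, 161, 175 and 141 with vehicle and 119, 117, 107 and 98.9 with dexamethasone. Neither pair of groups overlapped. The difference was -0.59 in wild type (SE 0.103, adjusted p = 0.000632) and -0.52 in the knockout (SE 0.103, adjusted p = 0.00115). Txnrd2, the mitochondrial reductase, fell by 0.27 (adjusted p = 0.0117) and by 0.25 (adjusted p = 0.0113).

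Txnrd1, the cytosolic reductase that is a known NRF2 target, fell in the knockout from 29.9 ± 3.47 to 20.9 ± 1.45 FPKM (-0.49, adjusted p = 0.000804) and was 36.3 ± 4.12 and 33.2 ± 2.10 in wild type (-0.12, adjusted p = 0.36). Txn2, mitochondrial thioredoxin, fell in the knockout by 0.27 (adjusted p = 0.00462) and differed by -0.17 in wild type (adjusted p = 0.0647). Under quantile normalization the knockout values of Txn1, Txn2 and Txnrd2 were -0.28, -0.16 and -0.20, with adjusted p of 0.0553, 0.0625 and 0.0514. Under voom, those of Txn2 and Txnrd2 were -0.11 and -0.12, with adjusted p of 0.317 and 0.172. With only the groups compared the wild-type adjusted p of Txnrd2 was 0.0592.

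The peroxiredoxin arm held the steepest fall of any member in wild type. Prdx1, which reduces hydrogen peroxide with thioredoxin, stood at 470, 437, 829 and 525 FPKM in wild type with vehicle and at 225, 270, 255 and 277 with dexamethasone. In knockout libraries Prdx1 stood at 696, 628, 738 and 381 with vehicle and between 215 and 258 with dexamethasone. The groups did not overlap, with 0.454 of the vehicle mean left in wild type (-1.09, SE 0.206, adjusted p = 0.0011) and 0.387 in the knockout (-1.32, SE 0.206, adjusted p = 0.000166). The vehicle libraries that stood apart in Prdx1, wild type 3 and knockout 4, were also those apart in Col1a1. Without these and wild-type dexamethasone library 4 the differences were -0.93 and -1.54 (adjusted p 1.59e-05 and 6.89e-08), and over all 27 alternatives the adjusted p stayed at or below 0.00579.

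Srxn1, sulfiredoxin, which restores over-oxidized peroxiredoxins, stood at 65.1, 53.4, 65.2 and 64.1 FPKM in wild type with vehicle and between 34.4 and 43.1 with dexamethasone. Its knockout values were 56.4, 58.5, 50.1 and 39.8 with vehicle and 21.3, 26.2, 26.9 and 26.4 with dexamethasone. All treated libraries were below the vehicle libraries of their genotype (-0.63, SE 0.118, adjusted p = 0.000982 in wild type, and -0.99, SE 0.118, adjusted p = 1.57e-05 in the knockout). Prdx2, an abundant cytosolic form, fell from 50.2 ± 2.31 to 38.3 ± 4.15 FPKM (-0.39, adjusted p = 0.00252) and from 51.9 ± 5.23 to 34.6 ± 1.95 (-0.57, adjusted p = 8.13e-05). Junb and Rnaseh2a overlap 5.67% and 5.80% of its exon bases on the other strand.

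Prdx6, a peroxiredoxin that uses glutathione in place of thioredoxin, was the single member of this arm that rose in wild type. It went from 17.4, 17.4, 15.1 and 19.1 to 28.5, 25.6, 31.7 and 20.7 FPKM (0.59, SE 0.104, adjusted p = 0.000687), without overlap. Knockout values of Prdx6 were 18.2, 17, 15.9 and 16.8 with vehicle against 16.4, 16.9, 17.7 and 18.6 with dexamethasone (0.03, adjusted p = 0.851). Prdx4, the form of the endoplasmic reticulum, fell in the knockout by 0.48 (adjusted p = 0.00454), with an adjusted p of 0.0533 under voom (-0.33). Prdx3, the mitochondrial form, fell there by 0.18 (adjusted p = 0.0221), a call that ended without any 1 of knockout vehicle libraries 1 to 3 and dexamethasone libraries 1 and 3 (adjusted p 0.0514 to 0.0681). Its difference was -0.14 under median-ratio scaling (adjusted p = 0.0603), 0.00 under quantile normalization and -0.01 under voom. Prdx5 passed in neither genotype (-0.12 and -0.35).

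Changes of the dismutases and catalase, which remove superoxide and hydrogen peroxide directly, were small. Sod1, the cytosolic dismutase, was 0.23 higher with dexamethasone in both genotypes (adjusted p = 0.0427 in wild type, where the groups overlapped, and 0.0302 in the knockout, where they did not). Cat, catalase, was 198 ± 26.7 and 264 ± 52.7 FPKM in wild type (0.40, adjusted p = 0.0498) and 156 ± 19.1 and 200 ± 26.8 in the knockout (0.35, adjusted p = 0.0687). Leaving out 1 library ended the wild-type call of Sod1 for 11 of 16 libraries (all but wild-type vehicle 4, wild-type dexamethasone 2 and knockout vehicle 2 to 4; adjusted p up to 0.124). It ended that of Cat for 11 of 16 (all but wild-type vehicle 3, wild-type dexamethasone 1 and 3, knockout vehicle 4 and knockout dexamethasone 3; adjusted p up to 0.136). The knockout call of Sod1 ended without knockout vehicle library 1, 3 or 4 or dexamethasone library 1, 3 or 4 (adjusted p 0.0526 to 0.0905). None of the 3 calls passed with no filter on low values, and the wild-type calls did not pass with only the groups compared. Without the 3 libraries apart in Col1a1 the wild-type difference of Sod1 was 0.17 (adjusted p = 0.178), and under voom its knockout difference was 0.41. Sod2, the mitochondrial dismutase, fell in the knockout by 0.24 (adjusted p = 0.0169), and not without vehicle library 2 (-0.20, adjusted p = 0.0589), without dexamethasone library 4 (-0.21, adjusted p = 0.0526), under quantile normalization (-0.18, adjusted p = 0.0658) or under voom (-0.10, adjusted p = 0.237).

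None of the 5 NADPH-supplying genes passed in wild type, where 30.1% of all genes did. In the knockout 2 fell, against 24.1% of all genes. G6pdx, which starts the pentose phosphate pathway, lay between 75.5 and 108 FPKM in all 16 libraries, with differences of -0.01 and -0.07. Pgd, the next dehydrogenase of the pathway, fell in the knockout by 0.25 (adjusted p = 0.00867), but was -0.06 under quantile normalization (adjusted p = 0.54) and -0.08 under voom (adjusted p = 0.414). Me1, malic enzyme, went in the knockout from 3.18, 2.10, 2.23 and 4.48 to 0.638, 0.80, 1.26 and 1.62 FPKM, without overlap (-0.93, SE 0.335, adjusted p = 0.0391). Its call ended without knockout vehicle library 1 or 4 or dexamethasone library 1, 2 or 3 (adjusted p 0.0577 to 0.105), with no filter on low values and under voom (-1.31, adjusted p = 0.122). Taldo1 and Tkt, of the non-oxidative branch, passed in neither genotype.

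With vehicle, few members separated the genotypes. Gsr and Gpx3 were lower and Gsto1 and Prdx3 higher in the knockout. That was 4 of 39 members against 4.68% of all genes, with 2 higher (3.37% of all genes) and 2 lower (1.3%). The median member difference was -0.12, beside 0.04 over all genes. Gsr stood at 27.8, 25.0, 25.2 and 28.8 FPKM in wild type and at 16, 18.6, 16.3 and 15.4 in the knockout, without overlap (-0.66, SE 0.101, adjusted p = 0.00161), and passed under all 27 alternatives (adjusted p at most 0.00828). Gpx3 was 55.1 ± 16.4 and 18.0 ± 8.37 FPKM, also without overlap (-1.63, SE 0.341, adjusted p = 0.0132; 0.000228 to 0.0688 over the alternatives, the highest with only the groups compared). The Gpx3 difference was -1.0 with the stromal score of each library as a covariate (adjusted p = 0.0348), and Gsr -0.71 (adjusted p = 0.00278). In wild-type library 3, low in stromal markers, Gsr was 25.2 and Gpx3 31.5 FPKM. Knockout libraries 1 to 3 reached at most 18.6 and 22.7, and knockout library 4, high in stromal markers, held 15.4 and 26.8. These libraries are part of both calls, so the values do not test the part of stroma. The groups of Gclm and Blvrb also did not overlap, with differences of -0.37 (adjusted p = 0.191) and -0.38 (adjusted p = 0.0988).

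Gsto1 was 0.39 higher in the knockout (adjusted p = 0.0482) and Prdx3 0.21 higher (adjusted p = 0.0465), and both calls were fragile. The Gsto1 call ended without any 1 library other than wild-type vehicle 3, wild-type dexamethasone 4 and knockout vehicle 4 (adjusted p 0.0523 to 0.161). The Prdx3 call ended without any 1 library other than those 3 and wild-type dexamethasone 2 (adjusted p 0.0516 to 0.148). Neither passed under median-ratio scaling (adjusted p = 0.0541 and 0.0821) or quantile normalization (0.0664 and 0.26), with no filter on low values, with only the groups compared or with the stromal covariate. The split of 2 up and 2 down became 0 up and 2 down under median-ratio scaling, 0 and 7 under quantile normalization and 1 and 5 under voom. Single libraries also moved this count: 7 members passed without wild-type vehicle library 3 and 7 without knockout vehicle library 4. It was 6 without wild-type dexamethasone library 4, 3 without wild-type dexamethasone library 2, and 2 without any 1 of the remaining 12. Knockout vehicle library 4 held the lowest value of its group in 24 of 39 members. The share over all genes is not given, so this is not shown to be particular to the members.

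Under dexamethasone, a comparison that uses the treated libraries of both dexamethasone comparisons again, more members passed between genotypes than with vehicle, and most of them were lower in the knockout. Whether the gap itself differed between treatments is the interaction tested below, in which no member passed. Members of every arm but the sensors and the dismutases and catalase were lower in the knockout: Gclc, Gclm and Gsr of glutathione synthesis and recycling, Gpx3 and Gpx4, Gstm1, Gsta3, Gsta4 and Gstp1, Txnrd1, Srxn1 and Prdx4 to Prdx6, Hmox1, Blvrb and Nqo1, and Taldo1 and Me1. Gpx1 and Prdx3 were higher. This was 21 of 39 members against 26.7% of all genes, with 2 higher (5.13%, against 14.3% of all genes) and 19 lower (48.7%, against 12.4%). The median member difference was -0.39, beside 0.03 over all genes. Nfe2l2 did not differ detectably, at 56.8 ± 4.08 FPKM in wild type and 54.2 ± 2.32 in the knockout (-0.07, SE 0.0691, adjusted p = 0.505). Txn1 and Prdx1 also did not pass (-0.02 and -0.12).

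The stromal markers moved with this comparison: 7 of the 8 tested were lower in the knockout, against 12.4% of all genes. Wild-type dexamethasone library 4, the treated wild-type library with the lowest stromal sum, lay on the wild-type side of all 4 knockout libraries for 17 of the 21 called members. Exceptions were Gsta4, Gstp1, Nqo1 and Me1, and the library lay on that side for 8 of the 18 members not called. That library is itself part of every call, so called members would lie on that side more often by selection alone. The count therefore does not test the part of stroma in the calls. With the stromal score as a covariate, 13 of the 21 calls were kept and 3 were added (Cat, Mgst1 and Prdx1), while the count over all genes went from 3114 to 946. Those lost were Gsta4, Me1, Gpx1, Gstp1, Prdx3, Prdx4, Prdx5 and Nqo1. The score itself went largely with genotype: 4.7, 4.19, 4.59 and 1.9 in treated wild type, and 0.479, 0.485, 1.86 and 2.12 in the treated knockout. The fit also used a slope shared by all groups, so a kept or lost call does not tell stroma from genotype. Without the 3 libraries apart in Col1a1, all 21 calls were kept and 5 were added, but then Col1a1 was high in every wild-type library and low in every treated knockout library, so stroma and genotype cannot be told apart in that fit.

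Gsr had the smallest adjusted p of this comparison. It stood at 34.6, 43.4, 43.2 and 49.2 FPKM in wild type and at 18.3, 22.2, 20.3 and 23.2 in the knockout, 0.494 of the wild-type mean (-0.98, SE 0.101, adjusted p = 3.33e-05). Gclc was 0.532 of the wild-type mean, at the library values given above (-0.84, SE 0.119, adjusted p = 0.000368), and Gclm 0.597 (-0.68, SE 0.156, adjusted p = 0.00769). None of these 3 genes overlapped between genotypes. With the stromal covariate the differences were -1.05, -1.09 and -1.06 (adjusted p 0.000192, 5.61e-05 and 0.000268), and over all 27 alternatives the adjusted p of each stayed at or below 0.00212, 0.00179 and 0.0259. In wild-type dexamethasone library 4, Gsr was 49.2, Gclc 17 and Gclm 29.7 FPKM, all above the knockout libraries, as the lack of overlap already implies. That library is part of these calls, so its values do not test the part of stroma.

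**Figure D3:**
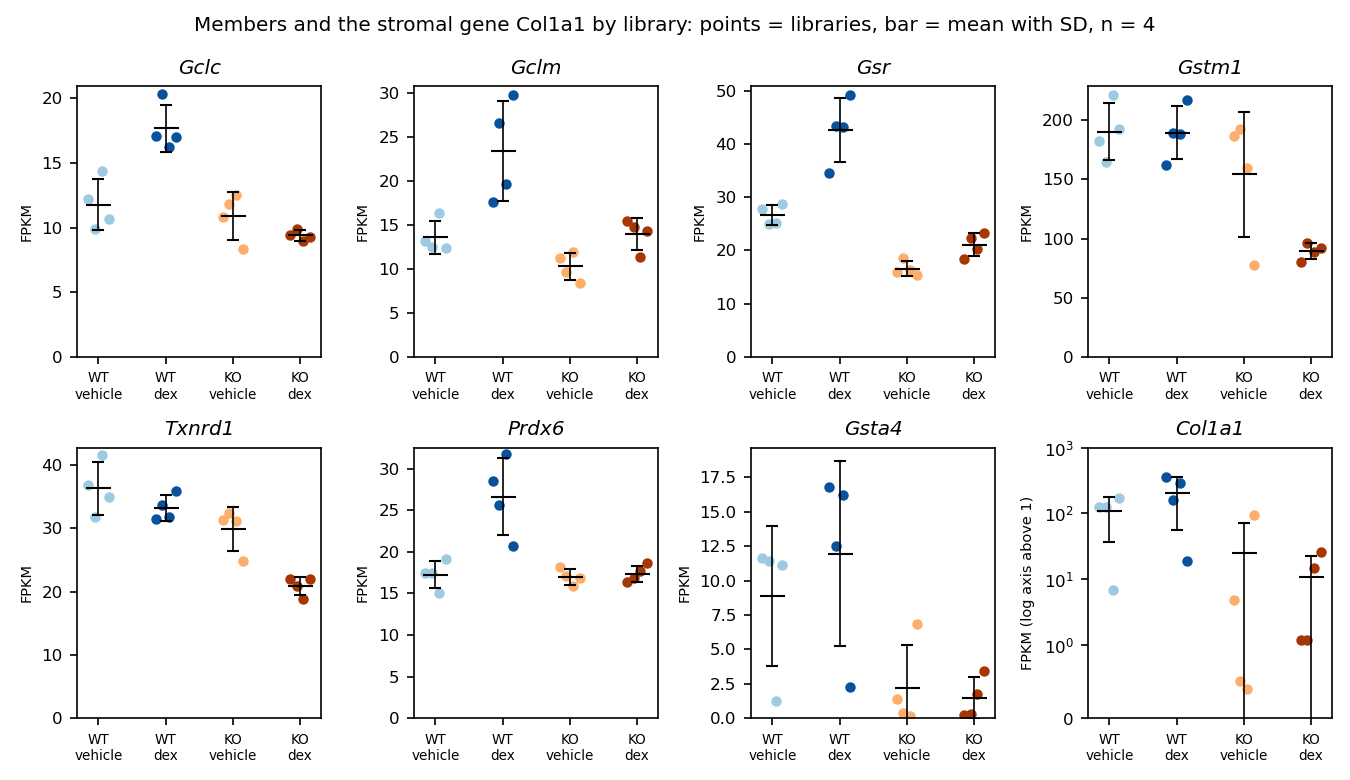
FPKM of 7 members and of the stromal gene Col1a1 (log axis above 1) in each of the 16 libraries; points are libraries and bars the mean with SD, n = 4 per group, drawn down to the floor of the axis. Under dexamethasone Gclc, Gclm, Gsr, Gstm1, Txnrd1 and Prdx6 are lower in every knockout library than in every wild-type library, whereas Gsta4 overlaps and goes low in the wild-type libraries with low Col1a1.

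Gstm1 stood at 162, 189, 189 and 217 FPKM in treated wild type and at 80.3, 96.5, 88.7 and 91.9 in treated knockout libraries, without overlap (-1.07, SE 0.217, adjusted p = 0.00396; -1.56 with the stromal covariate, adjusted p = 0.00028; at most 0.0156 over the alternatives). Gpx3 was 217 ± 76.7 and 61.2 ± 14.2 FPKM (-1.77, SE 0.341, adjusted p = 0.00287), and with the covariate its difference went to -0.92 (adjusted p = 0.0478, the highest of its alternatives). Gsta3 was 2.31 ± 0.767 and 0.939 ± 0.303 (-0.76, adjusted p = 0.00413; -1.30 under voom). Its treated wild-type libraries met the filter on low values by themselves, so this call also had that help. Gpx4 was 172 ± 14.2 and 138 ± 9.79 (-0.32, adjusted p = 0.0111). Gpx1 went the other way, 193 ± 33.2 against 257 ± 14.4 (0.43, adjusted p = 0.0226), and its call ended without wild-type dexamethasone library 1 (0.33, adjusted p = 0.0802), knockout dexamethasone library 1 (0.42, 0.0569) or 3 (0.39, 0.0584) and with the stromal covariate (0.20, adjusted p = 0.403). The Gstp1 call (-0.39, adjusted p = 0.0137) ended without wild-type dexamethasone library 3 (-0.33, adjusted p = 0.0507) and with the covariate (-0.21, adjusted p = 0.278).

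Gsta4, the alpha-class enzyme that conjugates lipid aldehydes, followed the stromal markers across libraries. It stood at 11.6, 11.4, 1.28 and 11.1 FPKM in wild type with vehicle, 16.8, 12.5, 16.2 and 2.28 with dexamethasone, 1.38, 0.381, 0.136 and 6.83 in the knockout with vehicle and 0.271, 0.330, 1.78 and 3.46 with dexamethasone. The low wild-type and the high knockout vehicle libraries are those apart in Col1a1. Its difference under dexamethasone was -2.33 (SE 0.732, adjusted p = 0.0319) and -0.06 with the stromal covariate (adjusted p = 0.861). The call also ended without any 1 of wild-type dexamethasone libraries 1 to 3 and knockout dexamethasone libraries 1 to 3 (adjusted p 0.0511 to 0.0943), with no filter on low values and under voom (-3.33, adjusted p = 0.0938). Me1 was 4.75, 5.66, 6.25 and 1.41 FPKM in treated wild type and 0.638, 0.80, 1.26 and 1.62 in treated knockout libraries (-1.32, SE 0.335, adjusted p = 0.0129; -0.35 with the covariate, adjusted p = 0.257, the single alternative that ended the call).

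Txnrd1 was 31.4, 33.6, 31.7 and 35.9 FPKM in treated wild type and 21.9, 20.8, 18.9 and 22 in treated knockout libraries, without overlap (-0.64, SE 0.0932, adjusted p = 0.000443; -0.86 with the covariate, adjusted p = 1.64e-05; at most 0.00286 over the alternatives). Srxn1 was 39.6 ± 3.71 and 25.2 ± 2.64 (-0.63, SE 0.118, adjusted p = 0.00236) and Prdx6 26.6 ± 4.65 and 17.4 ± 0.978 (-0.57, SE 0.104, adjusted p = 0.00204). Both kept their call with the covariate (-0.80 and -0.36, adjusted p = 0.00237 and 0.0453, and at most 0.0101 and 0.0453 over the alternatives). Prdx5, a peroxiredoxin of several compartments, was 73.6 ± 11.2 and 46.6 ± 4.66 (-0.64, adjusted p = 0.00886; -0.29 with the covariate, adjusted p = 0.213). Trmt112 overlaps 19.1% of its exon bases on the other strand. Prdx4 differed by -0.42 (adjusted p = 0.0184), but not without wild-type dexamethasone library 1 (adjusted p = 0.0623) or 3 (0.0562) or knockout dexamethasone library 1 (0.0514), nor with the covariate (-0.30, adjusted p = 0.23) or only the groups compared (adjusted p = 0.051). Prdx3 was 0.17 higher in the knockout (adjusted p = 0.0357), and that call ended without wild-type dexamethasone library 1, 2 or 4 or knockout dexamethasone library 1, 2 or 4 (adjusted p 0.0596 to 0.105), with the covariate (adjusted p = 0.328), under median-ratio scaling (0.0568) and with only the groups compared.

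Hmox1 was 821 ± 62.3 FPKM in treated wild type and 555 ± 65.3 in the treated knockout, without overlap (-0.57, SE 0.129, adjusted p = 0.00752; -0.82 with the covariate, adjusted p = 0.00153; at most 0.0254 over the alternatives). Blvrb was 87.7 ± 15.6 and 59.9 ± 6.14 (-0.53, SE 0.126, adjusted p = 0.00924). Taldo1, transaldolase, was 152, 181, 175 and 234 in wild type and 126, 136, 122 and 128 in the knockout (-0.51, SE 0.119, adjusted p = 0.00842; -0.77 with the covariate, adjusted p = 0.00101). Nqo1 differed by -0.53 (adjusted p = 0.0286) with overlapping groups, and not without wild-type dexamethasone library 1 (-0.45, adjusted p = 0.0927) or 3 (-0.41, 0.0968), without knockout dexamethasone library 2 (-0.56, 0.051) or 3 (-0.39, 0.0811) or with the covariate (-0.56, 0.122), quantile normalization (-0.46, 0.0514), no filter on low values or only the groups compared. G6pdx, Pgd and Tkt did not pass.

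**Figure D4:**
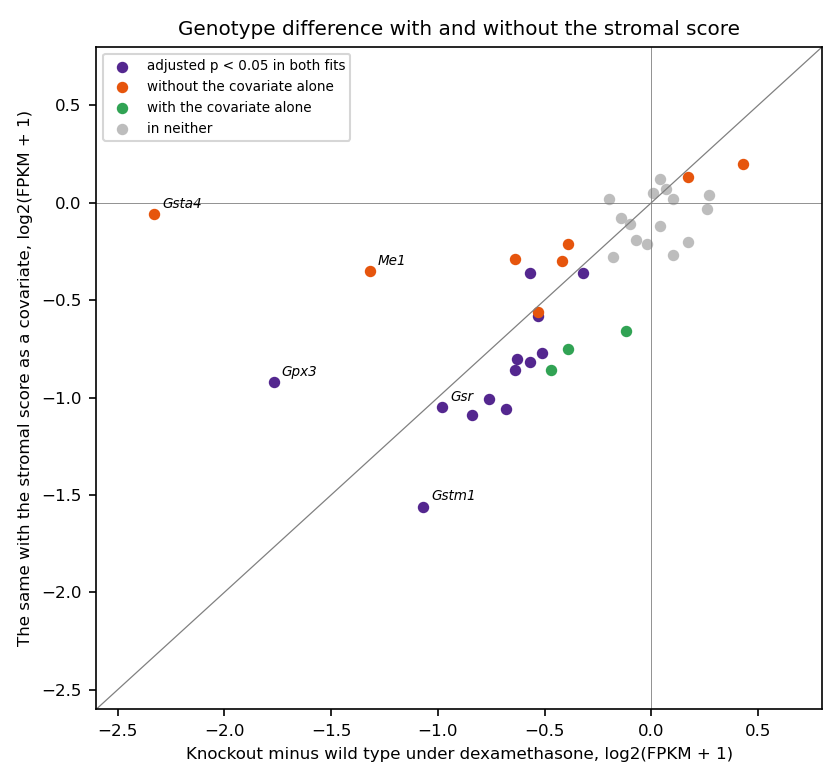
Knockout minus wild type under dexamethasone for the 39 tested members, on the log2(FPKM + 1) scale, without (x axis) and with (y axis) the stromal score as a covariate; the diagonal marks equal values and colours give the fit in which the adjusted p was under 0.05. Gsta4 moves from -2.33 to -0.06, whereas Gsr and Gstm1 stay at or below -0.98 in both fits. The score went largely with genotype, so neither pattern tells stroma from genotype.

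Whether the dexamethasone response itself differed by genotype was tested as an interaction. No member passed limma's interaction test after Benjamini-Hochberg adjustment, where 0.129% of all genes did (15 of 11654). At an unadjusted p under 0.05 there were 10 of 39 members, against 11.7% of all genes. Under voom 0 members passed and 6 had such a p, against 12.5% of all genes. Gclc had the lowest adjusted p, with a response 0.73 smaller in the knockout (SE 0.168, unadjusted p = 0.000598, adjusted p = 0.127). Prdx6 followed (-0.56, SE 0.147, unadjusted p = 0.0019, adjusted p = 0.167). A response called in a single genotype, as for Gclc, Gclm, Prdx6 and Gpx1 in wild type or Txnrd1 and Keap1 in the knockout, is therefore not shown to differ between genotypes.

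Members passed this test in 5 of 26 alternatives. Gclc passed in each of the 5: without wild-type dexamethasone library 4 (-0.75, adjusted p = 0.0424), without knockout vehicle library 4 (-0.84, 0.0273), without these and wild-type vehicle library 3 (-0.95, 0.00131), with the stromal covariate (-0.80, 0.0129) and with array weights (-0.81, 0.00148). Over all 26 its difference ran from -0.95 to -0.66 and its adjusted p from 0.00131 to 0.246. Prdx6, Gstm1 and Txnrd1 passed in 3 each. Prdx6 passed without wild-type dexamethasone library 4 (-0.67, adjusted p = 0.00832; 0.00153 to 0.343 over all alternatives) and Gstm1 without knockout vehicle library 4 (-0.99, adjusted p = 0.0209; 0.00131 to 0.629).

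Other genes of the pathway, listed beside the members, responded to dexamethasone at shares near those of all genes in the knockout. Of 49 genes with a single identifier, 43 were tested. In wild type 8 rose (18.6%, against 11.9% of all genes) and 7 fell (16.3%, against 18.2%). In the knockout 6 rose (14.0%, against 15.0%) and 11 fell (25.6%, against 24.1%). Selenop, the secreted selenoprotein that carries selenium, rose by 1.18 (adjusted p = 2.93e-05) and by 1.66 (adjusted p = 7.38e-07), and Ephx1, an epoxide hydrolase, by 0.90 (adjusted p = 0.000552) and by 1.19 (adjusted p = 3.21e-05). Sesn1, a sestrin, fell by 0.88 (adjusted p = 5.14e-05) and by 0.92 (adjusted p = 2.24e-05). Blvra, biliverdin reductase A, fell by 0.48 and by 0.66 (adjusted p = 0.00223 and 0.000132).

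Between genotypes, 1 of these genes was higher and 1 lower with vehicle, together 4.65% against 4.68% of all genes. Under dexamethasone 3 were higher (6.98%, against 14.3% of all genes) and 13 lower (30.2%, against 12.4%). Osgin1, an NRF2-responsive growth inhibitor, stood at 9.51, 9.45, 8.25 and 12.2 FPKM in wild type and 6.66, 6.48, 7.39 and 5.94 in the knockout with vehicle (-0.50, SE 0.109, adjusted p = 0.0164). Under dexamethasone it stood at 15.8, 16.6, 17.5 and 20.2 and between 8.52 and 10.9 (-0.81, SE 0.109, adjusted p = 0.000258). Neither comparison overlapped. Sesn1 was higher in the knockout, by 0.50 with vehicle (adjusted p = 0.0212) and by 0.46 with dexamethasone (adjusted p = 0.0113). Sqstm1, which binds KEAP1 for autophagy, was 0.62 lower under dexamethasone (adjusted p = 0.000848), Mafk, a small MAF partner of NRF2, 0.56 lower (adjusted p = 0.00149) and Abcc1, an exporter of glutathione conjugates, 0.51 lower (adjusted p = 0.000279).

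Of the 6 subunits of the phagocyte NADPH oxidase, 4 fell and 1 rose with dexamethasone in each genotype. Over all genes 18.2% fell and 11.9% rose in wild type, and 24.1% fell and 15.0% rose in the knockout. Rac2, the GTPase subunit, went from 165 ± 10.4 to 72.1 ± 13.4 FPKM in wild type (-1.20, SE 0.0947, adjusted p = 5.01e-07) and from 238 ± 2.13 to 101 ± 4.62 in the knockout (-1.22, SE 0.0947, adjusted p = 2.4e-07). Cybb, the catalytic subunit, fell by 1.14 (adjusted p = 0.000452) and by 0.69 (adjusted p = 0.0103). Ncf1, the cytosolic organizer p47phox, rose by 0.49 (adjusted p = 0.00248) and by 0.84 (adjusted p = 1.97e-05). Between genotypes 1 subunit was higher in the knockout with vehicle and 4 under dexamethasone, and none was lower. Over all genes 3.37% were higher with vehicle and 14.3% under dexamethasone. Most antioxidant members called under dexamethasone went the other way. The macrophage markers went the same way as the subunits: 6 of 10 were higher in the knockout under dexamethasone (Adgre1 by 1.42, adjusted p = 0.00058). The part of these markers in the result was not tested.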

How the data were processed

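RNA-seq of 16 libraries gave 1 table of gene levels each. The authors deposited FPKM values per gene, and per the submitters' processing notes used HTSeq 0.6.1, TopHat2 2.0.12, Bowtie2 2.2.3 and DESeq2 with the builds GRCm38 and mm10. Their order, settings and strand handling were not given in the sources used here.

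Differences were tested with limma 3.58.1 (R 4.3.3) on log2(FPKM + 1), with 4 group means, a trended prior and Benjamini-Hochberg adjustment over all 11654 genes with 1 FPKM or more in 4 libraries. This scale understates changes of low genes. All adjusted p-values in the text are from limma. There were 5 comparisons: the dexamethasone effect within either genotype, the genotype difference with vehicle and with dexamethasone, and the interaction. The fitting script was first tested on simulated data. FPKM steps gave whole reads for 96.2% of positive values (within 0.05 reads), which limma voom used as an alternative. Libraries held 16886740 to 20584556 such reads.

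A total of 27 alternatives were run: each of 16 libraries left out, and 11 other settings, among them another pseudocount (0.1 FPKM), no filter or one of 5 FPKM, median-ratio and quantile scaling, array weights and the mean of 10 stromal markers as a covariate. Members and other pathway genes were all counted. Of other pathway genes, up to 4 per direction and comparison with the smallest adjusted p could be named. Near copies share 95% of bases over at least 300 aligned bases (BLAST 2.17.0). The members, gene lists, stromal covariate and 3 libraries left out together were chosen with earlier results of these data known.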

Additional observations from a re-analysis of the deposited data

Results flagged for a closer look

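In 8 of the 160 sets of 4 libraries searched (40 members in 4 groups), 1 library lay so far from the other libraries of its group that the gap took at least 0.829 of the group's range, Dixon's 95% critical value for 4 samples. Chance alone gives such a gap in about 1 set in 20, so 8 of 160 is no excess. None of the gaps below is thus shown to be more than chance. Wild-type vehicle library 3, which was low in stromal markers, stood apart for a pair of members: Gsta4 was low there, at 1.28 FPKM against 11.1 to 11.6 (gap ratio 0.953), and Slc7a11 was high, at 0.844 against 0.349 to 0.425 (gap ratio 0.846). Knockout vehicle library 4, which was high in stromal markers, was low for Hmox1, at 195 FPKM against 286 to 305 (gap ratio 0.829), and for Prdx3, at 39 against 43.2 to 43.5 (gap ratio 0.93). Wild-type dexamethasone library 4, also low in stromal markers for its group, was high for Gsto1, at 47.5 FPKM against 34.7 to 36.0 (gap ratio 0.9).

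Srxn1 was low in wild-type vehicle library 2, at 53.4 FPKM against 64.1 to 65.2 (gap ratio 0.914), and in knockout dexamethasone library 1, at 21.3 against 26.2 to 26.9 (gap ratio 0.88). Pgd was low in wild-type dexamethasone library 1, at 44.6 FPKM against 50.2 to 51.3 (gap ratio 0.833). The fall of Srxn1 with dexamethasone passed the test in both genotypes without either library.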

How the results depend on the processing

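Of 1803 values of called member results under alternatives, 1641 stayed past the threshold, 162 did not and 0 changed sign. Many of these alternatives leave the difference itself the same, as given above, so the values are not independent checks. The calls that held in every alternative were 14 of 18 with dexamethasone in wild type, 10 of 24 in the knockout, and between genotypes 1 of 4 with vehicle and 13 of 21 with dexamethasone. Between genotypes with vehicle, the 4 members called became 2 with no filter on low values, 2 with median-ratio scaling, 7 with quantile normalization, 15 with array weights, 1 with only the groups compared, 2 with the replicate block, 8 with the stromal covariate and 13 without the 3 libraries apart in Col1a1, and ran from 2 to 7 when 1 library was left out. All genes called there went from 545 to 4840 with array weights, 244 with only the groups compared and 3958 without the 3 libraries, and from 278 to 1623 with 1 library left out. With dexamethasone the 3114 genes called between genotypes became 6388 with array weights, 946 with the stromal covariate and 5158 without the 3 libraries, and 1517 to 4070 with 1 library left out. In the interaction the 0 members became 7 with array weights, 2 with the stromal covariate, 6 without the 3 libraries and 0 to 2 with 1 library left out. The 15 genes there became 6 with no filter, 1391 with array weights, 1 with the replicate block, 123 with the stromal covariate, 725 without the 3 libraries, 6 under voom and 2 to 330 with 1 library left out. The causes were not tested. Where 1 group lost a library, the remaining 3 were assumed to vary like the other groups. Same-numbered libraries deviated together in some group pairs and apart in others, with correlations from -0.68 to 0.73. The shared replicate numbers were not taken as pairing, but these values do not show that the libraries were unpaired. With the number as a block, 16, 23, 2 and 19 members passed in the 4 pairwise comparisons and 0 in the interaction. The block ended the wild-type dexamethasone calls of Sod1 (adjusted p = 0.0618) and Cat (0.088), the knockout dexamethasone call of Me1 (0.0734), the genotype calls of Gsto1 (0.0979) and Prdx3 (0.094) with vehicle, and those of Gsta4 (0.0566) and Prdx3 (0.0651) with dexamethasone. Levels under 1 FPKM rest on few reads, and a difference in such genes may not be detectable at this depth.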
